A study of Mus musculus with 14 samples.

Results

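The integrated stress response genes described here are 10 of the 22295 rows of the deposited gene expression table, taken by their symbols: Atf4, Ddit3, Atf3, Atf5, Nupr1, Ppp1r15a, Trib3, Chac1, Asns and Sesn2. They were chosen by the levels of Ddit3, Nupr1, Atf4 and related genes in these same libraries, so their differences between genotypes are given as a description, with no p-value. Each of the 10 symbols matched a single row, and all 10 were among the 9627 rows that passed the filter on low values. The filter asked for at least 1 RPKM (reads scaled to the length of the gene in kilobases and to the depth of the library) in at least 4 of the 14 libraries. Nupr1 was the only member with any library under 1 RPKM, namely 2 of the 4 wild type libraries.

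The integrated stress response is the route by which a cell slows protein synthesis under amino acid shortage, misfolded protein in the endoplasmic reticulum, double-stranded RNA or haem shortage. A kinase for each of these conditions phosphorylates the initiation factor eIF2alpha, which lowers general translation while raising translation of a few messages, above all that of the transcription factor ATF4. ATF4 with its partners then raises transcription of genes for amino acid synthesis and uptake, of further transcription factors such as Ddit3 (CHOP), and of feedback inhibitors. ATF4 protein is set mainly at translation, so an RNA level of Atf4 or of its targets does not measure the pathway's activity directly. In B cells the pathway is best known beside the unfolded protein response, since plasmablasts make large amounts of antibody.

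The series measured polyadenylated RNA of mouse splenic B cells, obtained by negative selection and grown ex vivo for 4 days with IL-4 (10 ng/ml) and LPS (5 µg/ml), a ligand of a Toll-like receptor. Libraries came from 3 genotypes: miR-155[-/-] mice, which lack the microRNA miR-155 (miR-155 KO, n = 5), PU.1[155-/155-] mice, in which the PU.1 gene was altered so that miR-155 no longer acts on it (PU.1 KI, n = 5), and wild type mice (WT, n = 4). Replicates are biological ones by the series' design text, and all 3 genotypes had the same culture. Both alleles belong to the whole animal rather than to B cells alone, and the sources used here do not give strain, age or any pooling of animals. These n hold for all means below, which are given in RPKM with SD, while log2 differences are on log2(RPKM + 0.5) with SE.

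Depth, worked out from the steps in the RPKM values, was between 38.7 and 52.4 M (megareads) in miR-155 KO, between 31.5 and 47.2 M in PU.1 KI and between 35.4 and 44.1 M in WT. Sfpi1, the symbol of the PU.1 gene in this table, averaged 16.7 ± 1.11 RPKM in miR-155 KO, 23.7 ± 2.04 in PU.1 KI and 11.995 ± 1.54 in WT. It was higher in both mutants than in WT, and lower in miR-155 KO than in PU.1 KI by a log2 difference of -0.49 ± 0.08. All 8 B cell markers passed the filter, with summed levels of 1411 to 1527 RPKM in miR-155 KO, 1603 to 1864 in PU.1 KI and 1554 to 1792 in WT. Of the 9 neutrophil markers and the 8 erythroid markers none passed it. The labels name no sequencing pool or culture day for any library, so their part in the differences between genotypes was not tested. In bulk RNA, fewer cells of a type and less RNA per cell cannot be told apart either.

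Promoter sequence is shown for the members that hold a known response element ahead of their start. They include the gene with the largest difference, Nupr1, and those that were lower in miR-155 KO than in PU.1 KI, Atf3 and Ppp1r15a. Windows of 250 bases before to 50 after the start were available for all 10 members, as 11 promoters with Atf5 having a pair, from RefSeq on GRCm38.p6. They were searched on both strands for TGATGNAA, the C/EBP-ATF response element that ATF4 dimers bind, and for TGACGTCA, the palindromic cAMP response element. The lines below run 5′ to 3′ on the gene's strand, with the match in capitals.
Atf3: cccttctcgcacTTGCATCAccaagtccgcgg
Nupr1: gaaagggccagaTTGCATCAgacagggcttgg
Chac1: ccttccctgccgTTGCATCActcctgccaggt
Asns: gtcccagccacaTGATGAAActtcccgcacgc
Ppp1r15a: ccgcctctccggTGACGTCAgcac

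The C/EBP-ATF element was found in 5 of the 10 members, against 1219 of 27025 genes (4.51%) over all RefSeq promoter windows of this length. In Atf3 (chr1:191183424-191183455, minus strand) and Nupr1 (chr7:126625561-126625592, minus strand) it lay on the opposite strand from -110 to -103 of the start. Chac1 (chr2:119351037-119351068, plus strand) had it on the opposite strand from -193 to -186. In Asns (chr6:7693213-7693244, minus strand) it lay on the same strand from -23 to -16, and Trib3 had its match after the start, from 15 to 22 on the opposite strand. The cAMP response element was found in Ppp1r15a alone (chr7:45526269-45526292, minus strand), from -12 to -5, against 549 of 27025 genes (2.03%). The 2 motifs did not overlap in any member. A match says that the letters are there and not that a factor binds. Members with the C/EBP-ATF letters included the gene with the largest difference, Nupr1, and also Atf3, which was not higher in miR-155 KO than in WT.

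**Figure D1:**
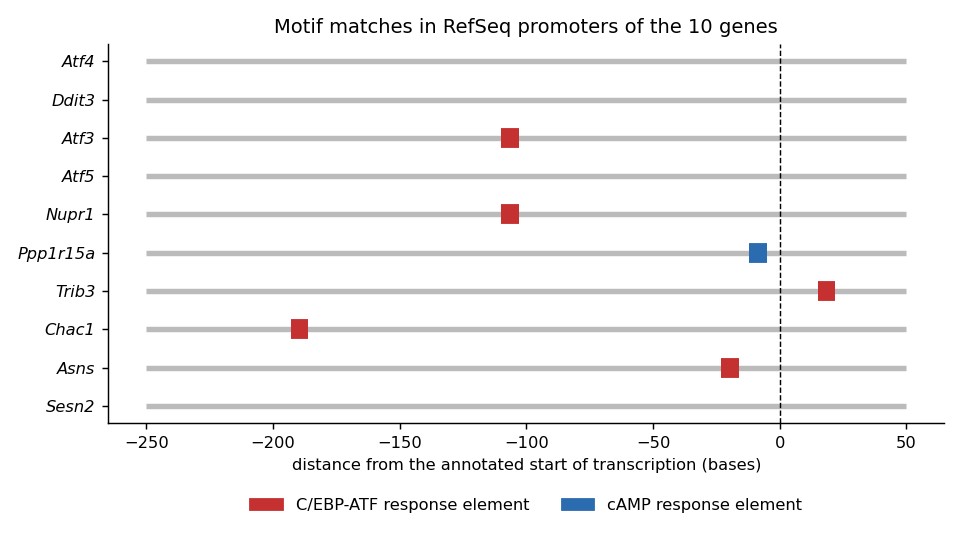
Positions of both motifs in the RefSeq promoter windows of the members, as distance from the transcription start in bases (x axis), with a row per gene. Matches to the C/EBP-ATF response element appear in Atf3, Nupr1, Chac1, Asns and Trib3, and the cAMP response element in Ppp1r15a alone.

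Among the transcription factors, Atf4 had the highest level of all 10 members in each genotype and the smallest coefficient of variation of the 4 factors. Atf4 (ENSMUSG00000042406, chr15:80085614-80087970 of NCBIM37, plus strand) had 122, 123, 127, 124 and 129.6 RPKM in miR-155 KO, 94.1, 98.0, 106, 112 and 100.4 in PU.1 KI and 84.2, 87.6, 86.8 and 92.3 in WT. No library of a genotype reached into another genotype's range. Mean levels were 125 ± 3.26, 102 ± 7.05 and 87.7 ± 3.38 RPKM in miR-155 KO, PU.1 KI and WT, ratios of 1.43 for miR-155 KO over WT and 1.16 for PU.1 KI over WT. On the log2 scale miR-155 KO stood 0.51 ± 0.06 above WT and 0.29 ± 0.05 above PU.1 KI, and PU.1 KI stood 0.22 ± 0.06 above WT. Scaling by median of ratios moved these to 0.56, 0.43 and 0.13, and quantile normalization to 0.58, 0.48 and 0.10.

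Ddit3 encodes CHOP, a C/EBP family factor downstream of ATF4 that is known for its link to cell death under lasting stress. It lies at chr10:126727830-126733344 (ENSMUSG00000025408, plus strand). Its RPKM were 31.4, 26.3, 31.0, 30.1 and 22.6 in miR-155 KO, 10.8, 10.6, 12.3, 12.7 and 11.5 in PU.1 KI and 7.64, 7.73, 7.88 and 8.73 in WT. The 3 ranges did not touch, and miR-155 KO replicate 5 was the lowest of its genotype. Means were 28.3 ± 3.77 RPKM in miR-155 KO, 11.6 ± 0.921 in PU.1 KI and 7.995 ± 0.501 in WT. The log2 difference was 1.75 ± 0.09 for miR-155 KO over WT (1.83 without that library), 0.51 ± 0.09 for PU.1 KI over WT and 1.25 ± 0.08 between the mutants. Its span shares 68 bases with Mars, the methionyl-tRNA synthetase gene, on the opposite strand. Mars was at 36.8 RPKM in miR-155 KO, 34.1 in PU.1 KI and 32.1 in WT, and its part in the Ddit3 values was not tested.

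Atf5 encodes a factor of the ATF4 family that is itself under translational control and is known for mitochondrial stress. It lies at chr7:52067627-52072028 (ENSMUSG00000038539, minus strand). Levels were 69.1, 71.3, 62.5, 55.7 and 57.7 RPKM in miR-155 KO, 20.5, 20.4, 22.7, 27.4 and 18.8 in PU.1 KI and 12.7, 17.0, 18.8 and 14.5 in WT. The miR-155 KO libraries lay far above the rest, while the lowest PU.1 KI library and the highest WT library were close together. Mean levels came to 63.2 ± 6.84 in miR-155 KO, 21.9 ± 3.32 in PU.1 KI and 15.7 ± 2.68 RPKM in WT. These are ratios of 4.02 for miR-155 KO over WT, 1.39 for PU.1 KI over WT and 2.88 for miR-155 KO over PU.1 KI. Atf5 is uncertain, because its span overlaps Il4i1 by 289 bases and Nup62 by 571 bases on the opposite strand, and the sources used here give no strand setting for the counting. Il4i1, an amino acid oxidase gene, was itself at 369 RPKM in miR-155 KO, 266 in PU.1 KI and 195 in WT. Nup62, a nuclear pore gene, was at 50.03 RPKM in miR-155 KO, 68.6 in PU.1 KI and 62.8 in WT. The part of either in the Atf5 values was not tested.

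Atf3, a stress-induced factor that can also repress transcription, had another order of genotypes. It lies at chr1:192994175-193007219 (ENSMUSG00000026628, minus strand). It stood at 5.50, 5.16, 5.34, 5.74 and 5.08 RPKM in miR-155 KO, 8.70, 7.91, 7.29, 7.88 and 7.12 in PU.1 KI and 6.12, 6.01, 5.29 and 5.51 in WT. All PU.1 KI libraries lay above all others, and miR-155 KO and WT overlapped. Means were 5.36 ± 0.266 in miR-155 KO, 7.78 ± 0.623 in PU.1 KI and 5.73 ± 0.398 in WT. Relative to WT the log2 difference was -0.09 ± 0.06 in miR-155 KO and 0.41 ± 0.06 in PU.1 KI, and between the mutants it was -0.50 ± 0.06.

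**Figure D2:**
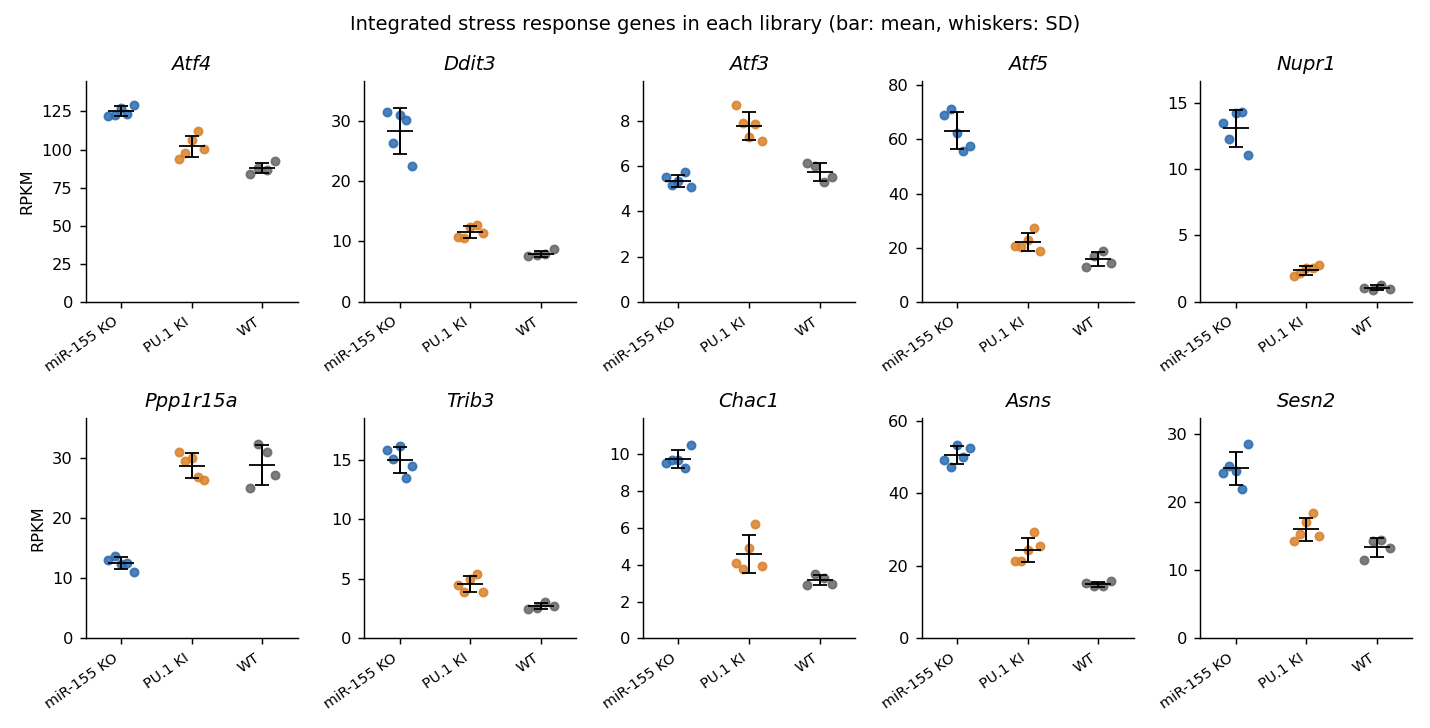
Levels of the 10 members in each library, in RPKM on a linear axis from 0, with a panel per gene, genotypes side by side, points for libraries, bars for the mean and whiskers for the SD. Nupr1 lies between 11.1 and 14.3 in miR-155 KO and at 1.30 or below in WT, whereas Ppp1r15a lies at 13.6 or below in miR-155 KO and at 25.0 or above in WT.

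Nupr1, a small chromatin-associated protein induced by stress that acts as a transcriptional co-regulator, had the largest difference of the 10 members. It lies at chr7:133766763-133769190 (ENSMUSG00000030717, minus strand). The libraries had 13.5, 12.3, 14.2, 14.3 and 11.1 RPKM in miR-155 KO, 1.93, 2.15, 2.53, 2.56 and 2.76 in PU.1 KI and 1.04, 0.866, 1.30 and 0.962 in WT. The genotypes did not overlap, and the gap between the mutants was wider than that between PU.1 KI and WT. Mean levels were 13.1 ± 1.38 in miR-155 KO, 2.38 ± 0.335 in PU.1 KI and 1.04 ± 0.185 RPKM in WT. The ratio of means was 12.6 for miR-155 KO over WT, 2.29 for PU.1 KI over WT and 5.49 for miR-155 KO over PU.1 KI. On log2(RPKM + 0.5), which understates a difference at such a level, these were 3.14 ± 0.10, 0.90 ± 0.10 and 2.24 ± 0.09.

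At the shortest gene length that gave whole reads, the values of Nupr1 rested on 376 to 585 reads per library in miR-155 KO, 56 to 100 in PU.1 KI and 29 to 38 in WT. Counting error alone at 29 reads is 18.6% of the level, close to the 17.7% coefficient of variation of the WT libraries. For the other members the lowest WT library held between 187 reads (Chac1) and 5290 reads (Atf4).

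Trib3 and Ppp1r15a both act in feedback, and they differed in opposite directions. Trib3, a pseudokinase that binds and restrains ATF4 and CHOP, lies at chr2:152163158-152169768 (ENSMUSG00000032715, minus strand). It had 15.8, 15.1, 16.2, 13.4 and 14.5 RPKM in miR-155 KO, 4.51, 3.87, 5.01, 5.45 and 3.94 in PU.1 KI and 2.45, 2.55, 3.03 and 2.71 in WT. The ranges were separate in all 3 genotypes. Means were 15.0 ± 1.08, 4.56 ± 0.681 and 2.68 ± 0.253 RPKM in miR-155 KO, PU.1 KI and WT, with log2 differences of 2.28 ± 0.09 for miR-155 KO over WT, 0.66 ± 0.09 for PU.1 KI over WT and 1.62 ± 0.08 between the mutants.

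Ppp1r15a encodes GADD34, the inducible subunit that brings protein phosphatase 1 to phosphorylated eIF2alpha and so ends the response. It lies at chr7:52778287-52781638 (ENSMUSG00000040435, minus strand). Its level was 13.1, 13.6, 12.4, 12.5 and 10.98 RPKM in miR-155 KO, 31.0, 29.5, 30.0, 26.9 and 26.3 in PU.1 KI and 25.0, 32.3, 31.0 and 27.2 in WT. The miR-155 KO libraries lay below all the rest, and PU.1 KI lay inside the range of WT. Mean levels of 12.5 ± 0.994 in miR-155 KO, 28.8 ± 2.05 in PU.1 KI and 28.9 ± 3.36 in WT gave ratios of 0.434 for miR-155 KO over WT and 0.996 for PU.1 KI over WT. The log2 difference was -1.17 ± 0.08 for miR-155 KO over WT and -1.17 ± 0.07 for miR-155 KO over PU.1 KI. Tulp2, which overlaps it on the opposite strand, was at 0.0663 RPKM or below in each genotype's mean.

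Of the effectors, Asns encodes asparagine synthetase, the amino acid enzyme whose promoter is the textbook example of amino acid control through ATF4. It lies at chr6:7625169-7643254 (ENSMUSG00000029752, minus strand). Asns had 49.2, 47.3, 53.4, 50.1 and 52.5 RPKM in miR-155 KO, 21.4, 21.4, 24.4, 29.5 and 25.5 in PU.1 KI and 15.2, 14.4, 14.4 and 15.9 in WT. Again no range met another. The means of 50.5 ± 2.46 in miR-155 KO, 24.4 ± 3.33 in PU.1 KI and 14.95 ± 0.717 in WT correspond to ratios of 3.38 for miR-155 KO over WT and 1.63 for PU.1 KI over WT. The log2 difference between the mutants was 1.04 ± 0.07.

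Chac1 encodes a glutathione-degrading enzyme and lies at chr2:119176965-119180117 (ENSMUSG00000027313, plus strand). It reached 9.51, 9.69, 9.68, 9.21 and 10.5 RPKM in miR-155 KO, 4.09, 3.75, 4.89, 6.20 and 3.92 in PU.1 KI and 2.92, 3.51, 3.27 and 2.94 in WT. Its PU.1 KI libraries spread more than those of the other genotypes, with coefficients of variation of 4.89% in miR-155 KO, 22.2% in PU.1 KI and 8.90% in WT, and PU.1 KI replicate 4 was the highest. The log2 difference was 1.48 ± 0.10 for miR-155 KO over WT and 0.45 ± 0.10 for PU.1 KI over WT.

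Sesn2, a leucine sensor that inhibits the growth kinase complex mTORC1, had the smallest ratio among the effectors. It lies at chr4:132047947-132066416 (ENSMUSG00000028893, minus strand). Its libraries held 24.3, 25.4, 24.6, 21.97 and 28.6 RPKM in miR-155 KO, 14.3, 15.3, 17.1, 18.4 and 15.0 in PU.1 KI and 11.4, 14.4, 14.5 and 13.2 in WT. The miR-155 KO libraries stood apart, while PU.1 KI and WT overlapped. Means were 25.0 ± 2.39 in miR-155 KO, 16.02 ± 1.67 in PU.1 KI and 13.4 ± 1.40 RPKM in WT, with a log2 difference of 0.88 ± 0.08 for miR-155 KO over WT and 0.25 ± 0.08 for PU.1 KI over WT. Of all 30 member differences, the one of Sesn2 between PU.1 KI and WT was the only one whose side of the threshold depended on a setting or on a single library. It was 0.16 with quantile normalization and 0.18 without WT replicate 1, both short of the threshold, and the other such values are given with the settings below.

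**Figure D3:**
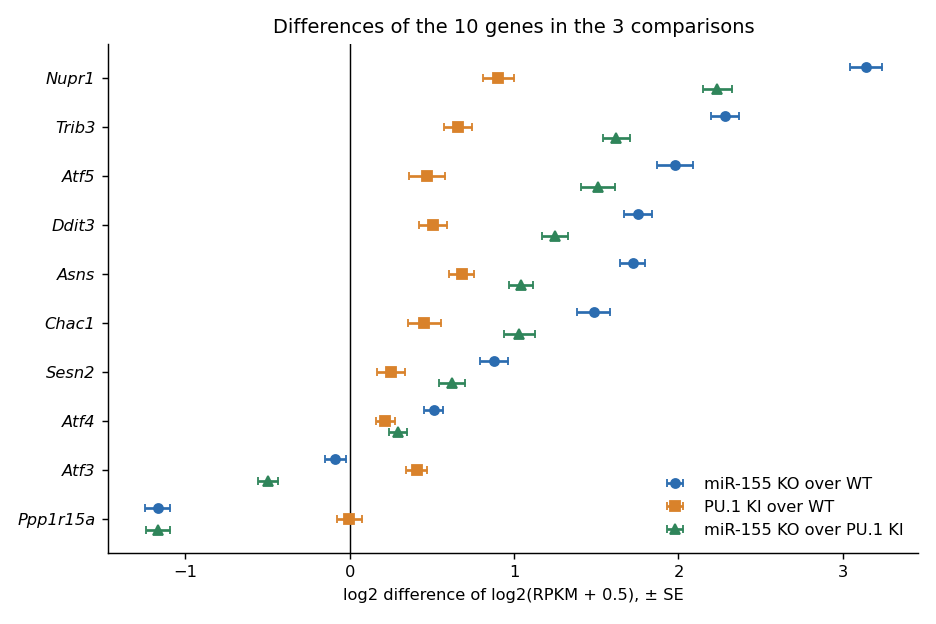
Log2 differences of the 10 members on log2(RPKM + 0.5), for miR-155 KO over WT, PU.1 KI over WT and miR-155 KO over PU.1 KI, with bars of 1 SE. Nupr1 has the largest value, 3.14 for miR-155 KO over WT, and Ppp1r15a the lowest, -1.17.

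Counted over the members, 8 of 10 were called higher in miR-155 KO than in WT and 1 lower (Ppp1r15a), where 27.2% of all tested genes were called higher and 35.3% lower. For PU.1 KI over WT 9 were called higher and 0 lower, where 23.7% of all genes were called higher and 4.03% lower. For miR-155 KO over PU.1 KI 8 were called higher and 2 lower (Atf3 and Ppp1r15a), where 17.9% of all genes were called higher and 46.4% lower. The members were picked with these contrasts known, so nothing is read from these counts. The median log2 difference of the members was 1.6 for miR-155 KO over WT, 0.46 for PU.1 KI over WT and 1.04 for miR-155 KO over PU.1 KI, beside -0.05, 0.08 and -0.13 over all tested genes. The 2 comparisons with WT share the WT libraries.

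By ranges, 8 members had every miR-155 KO library above every WT library and 1 had every one below, against 23.5% and 24.9% of all tested genes. For PU.1 KI over WT 8 members had every library above and 0 below, against 18.4% and 3.76% of all genes. Between the mutants 8 had every miR-155 KO library above and 2 had every one below, against 13.4% and 29.7% of all genes. Among the 8 members that were higher in miR-155 KO than in both other genotypes, PU.1 KI lay between WT and miR-155 KO in the mean of each, nearer to WT.

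The deposited RPKM were not centred on the same median in each genotype. Scaling by median of ratios moved the median over all genes between the mutants by more than 0.1, to -0.00 from -0.13 as deposited, and the calls over all genes to 3033 higher and 3013 lower from 1725 and 4467. For PU.1 KI over WT the calls were 1677 higher and 1518 lower with that scaling, against 2279 and 388 as deposited. No member difference with a call changed its direction under it. For Ppp1r15a, PU.1 KI over WT was 0.00 as deposited and -0.09 with that scaling, neither passing the threshold.

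The order of levels within a genotype, compared per length in RPKM, put Atf4 first in all 3 genotypes. In WT it was followed by Ppp1r15a, Atf5, Asns, Sesn2, Ddit3, Atf3, Chac1, Trib3 and Nupr1. The ranges of Atf5, Asns and Sesn2 overlapped in WT, as did those of Chac1 and Trib3, so these neighbours were not apart beyond their spread. In miR-155 KO the order was Atf4, Atf5, Asns, Ddit3, Sesn2, Trib3, Nupr1, Ppp1r15a, Chac1 and Atf3. Nupr1, last in PU.1 KI and in WT, thus stood above Ppp1r15a, Chac1 and Atf3 by its mean in miR-155 KO, although its range met that of Ppp1r15a.

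Within PU.1 KI and WT the same library tended to be at the edge as deposited. PU.1 KI replicate 4 was the highest of its genotype for 7 of 10 members as deposited and for 5 after median-of-ratios scaling, and it had the highest RPKM sum of all libraries. WT replicate 1 was the lowest for 7 members as deposited and for 2 after that scaling. By contrast, in miR-155 KO replicates 4 and 5 were each the lowest for 4 members as deposited, and replicate 5 was also the highest for 3. After scaling miR-155 KO replicate 5 was the lowest for 7. Without that library Nupr1 differed from WT by 3.20, Atf5 by 2.01 and Atf4 by 0.50 on the log2 scale.

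The wider set of genes known as targets of ATF4 or CHOP lay mostly in the same direction. Of 46 listed targets outside the members 40 were tested, and 33 rose in miR-155 KO against WT while 3 fell, with a median log2 difference of 0.64. Over all tested genes 27.2% rose and 35.3% fell in that comparison. In PU.1 KI against WT 21 rose and 0 fell, with a median of 0.23, and 19 rose and 2 fell (Rars and Slc1a5) after median-of-ratios scaling. That scaling called 1677 of all 9627 tested genes higher and 1518 lower there. Between the mutants 29 were higher and 3 lower in miR-155 KO, with a median of 0.42. The shares over all tested genes were 23.7% higher and 4.03% lower in PU.1 KI against WT. Between the mutants they were 17.9% and 46.4%. These calls are limma's with Benjamini-Hochberg adjustment over all 9627 genes. The list was put together with results of these samples known, so its direction is no independent evidence.

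Cth, Jdp2 and Gpt2 had the smallest adjusted p of these targets in miR-155 KO. Cth, the cystathionine gamma-lyase that makes cysteine, averaged 34.6 ± 1.26 RPKM in miR-155 KO, 10.4 ± 1.48 in PU.1 KI and 6.11 ± 0.891 in WT (log2 difference from WT 2.42 ± 0.09, limma adjusted p = 4.82e-14, and 0.72 ± 0.09, adjusted p = 5.69e-06). Jdp2, a repressor of the AP-1 family, averaged 15.4 ± 1.86, 4.73 ± 0.529 and 2.78 ± 0.160 RPKM in the same order of genotypes. Its rise in miR-155 KO was 2.27 against WT and 1.6 against PU.1 KI (limma adjusted p = 5.74e-14 and 4.6e-12). Gpt2, a mitochondrial alanine aminotransferase, averaged 13.7 ± 0.766 RPKM in miR-155 KO, 4.24 ± 0.725 in PU.1 KI and 2.76 ± 0.244 in WT. Eif4ebp1, which restrains cap-dependent translation, averaged 49.1 ± 1.95 RPKM in miR-155 KO, 36.6 ± 5.35 in PU.1 KI and 23.9 ± 0.637 in WT, and rose by 0.59 in PU.1 KI (limma adjusted p = 1.74e-05).

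The 3 targets that fell in miR-155 KO were Rars, Slc1a5 and Ero1l. Rars, arginyl-tRNA synthetase, averaged 15.7 ± 1.99 RPKM in miR-155 KO, 19.9 ± 1.63 in PU.1 KI and 21.6 ± 0.840 in WT (log2 difference from WT -0.46 in miR-155 KO, limma adjusted p = 5.74e-05). Slc1a5, a glutamine transporter, averaged 44.0 ± 3.96, 54.5 ± 3.59 and 56.6 ± 3.86 RPKM in that order of genotypes. Ero1l, the older symbol of an oxidase of the endoplasmic reticulum placed downstream of CHOP, averaged 14.7 ± 1.04 RPKM in miR-155 KO, 21.2 ± 0.731 in PU.1 KI and 18.1 ± 1.70 in WT. It was lower in miR-155 KO than in PU.1 KI by a log2 difference of -0.52 (limma adjusted p = 6.42e-07), against the order of Ddit3 itself.

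Divided by role, a division made after the values were seen, all groups of targets had more genes higher than lower. Against WT, 27.2% of all tested genes rose and 35.3% fell in miR-155 KO, and 23.7% rose and 4.03% fell in PU.1 KI. Of 10 enzymes of amino acid synthesis and one-carbon metabolism 9 rose and 0 fell in miR-155 KO against WT, with a median of 0.78, and 6 rose and 0 fell in PU.1 KI, with a median of 0.24. Of 7 amino acid transporters 5 rose and 1 fell in miR-155 KO, and 5 rose and 0 fell in PU.1 KI. Among 14 genes for tRNA synthetases and tRNA export, 12 rose and 1 fell in miR-155 KO and 4 rose and 0 fell in PU.1 KI, with medians of 0.52 and 0.13. Of the 9 other tested targets 7 rose and 1 fell in miR-155 KO and 6 rose and 0 fell in PU.1 KI.

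Another 6 listed targets were too low for the filter. In miR-155 KO, PU.1 KI and WT, Vldlr averaged 0.969, 0.159 and 0.0754 RPKM, Stc2 0.550, 0.114 and 0.0625, and Gdf15 0.460, 0.0593 and 0.0418. Adm2 averaged 0.562, 0.156 and 0.112 RPKM, Slc7a11 0.177, 0.0994 and 0.0561 and Fgf21 0.0814, 0.0470 and 0.0605 in the same order. In a fit with no filter 5 of the 6 passed the threshold as higher in miR-155 KO than in WT. Fgf21 did not, with a log2 difference of 0.05 (limma adjusted p = 0.594). Over all genes in that fit 3814 were called higher and 3732 lower in this comparison. The 6 targets averaged under 1 RPKM in each genotype, so nothing is read from their count.

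More of the genes upstream of the response were lower than higher in miR-155 KO. The 17 tested genes were those of the 4 eIF2alpha kinases, the 3 eIF2 subunits, the 5 subunits of its exchange factor eIF2B, the constitutive phosphatase subunit, and Impact, Gcn1l1, Nck1 and Dnajc3, which are known to act on the kinases or the phosphatase. Of these 1 rose and 10 fell in miR-155 KO against WT, with a median of -0.17, where 35.3% of all tested genes fell. Between the mutants 2 were higher and 10 lower in miR-155 KO, with a median of -0.20, where 46.4% of all tested genes were lower. They were 2 and 7 after median-of-ratios scaling and 3 and 5 with quantile normalization. Eif2ak2, the kinase PKR that senses double-stranded RNA, averaged 10.9 ± 1.102 RPKM in miR-155 KO, 19.2 ± 1.51 in PU.1 KI and 18.2 ± 1.08 in WT (log2 difference from WT -0.73 ± 0.07, limma adjusted p = 6.65e-08). Eif2ak4, the amino acid sensor GCN2, averaged 4.89 RPKM in miR-155 KO, 6.42 in PU.1 KI and 5.44 in WT, and rose by 0.22 in PU.1 KI (limma adjusted p = 0.00541). As deposited, its log2 difference in miR-155 KO was -0.14 from WT and -0.36 from PU.1 KI (limma adjusted p = 0.031 and 7.28e-06). Eif2ak3, the endoplasmic reticulum kinase PERK, was at 6.91, 7.89 and 7.28 RPKM, and Eif2ak1, the haem-regulated kinase, at 9.20, 9.75 and 9.48 in miR-155 KO, PU.1 KI and WT. Neither passed the threshold in miR-155 KO against WT (limma adjusted p = 0.286 and 0.574). Against PU.1 KI, as deposited, Eif2ak3 was lower in miR-155 KO by a log2 difference of -0.18 and Eif2ak1 did not pass (limma adjusted p = 0.0065 and 0.241). Of eIF2 itself, Eif2s1, the alpha subunit that the kinases phosphorylate, fell by 0.34 and Eif2s2, the beta subunit, rose by 0.31 in miR-155 KO against WT (limma adjusted p = 7.8e-05 and 0.00339). The single rise became 2 without WT replicate 1, and the 2 genes higher than in PU.1 KI became 1 without PU.1 KI replicate 2 or miR-155 KO replicate 4 and 0 without miR-155 KO replicate 3.

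**Figure D4:**
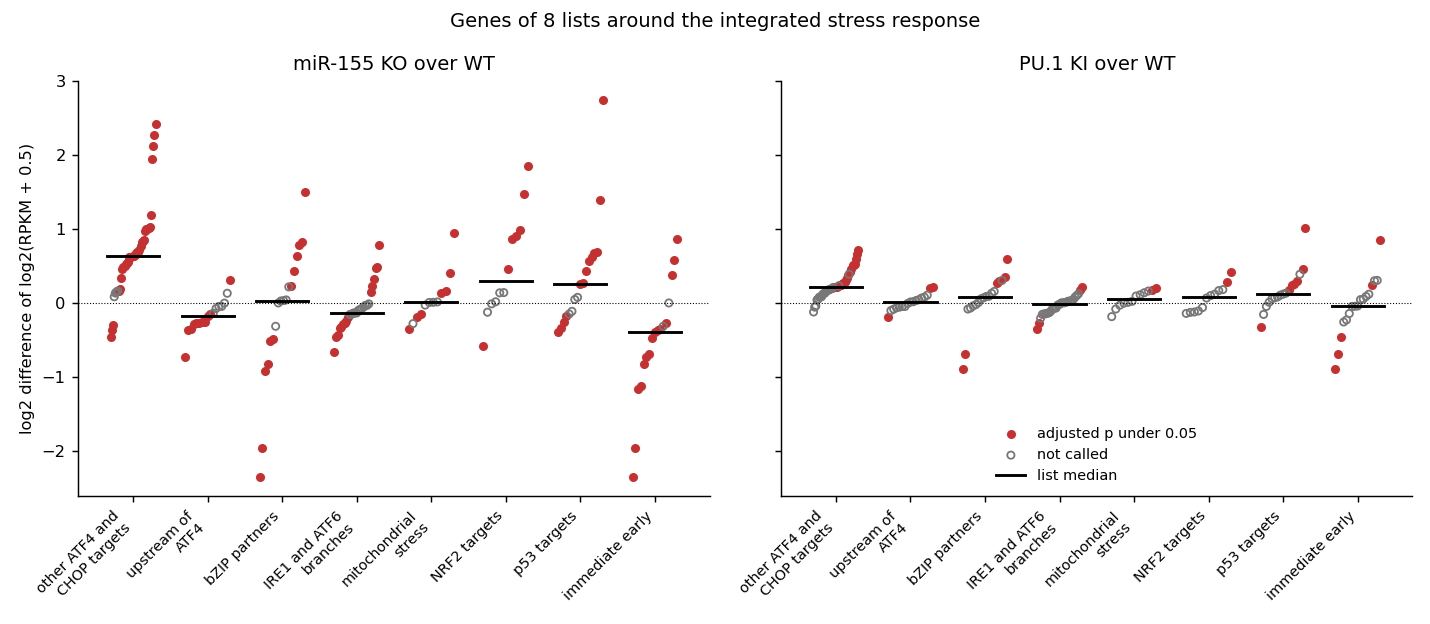
Log2 differences on log2(RPKM + 0.5) of the tested genes of each list, for miR-155 KO over WT and PU.1 KI over WT in separate panels, with a point per gene, filled where the adjusted p was under 0.05, and a bar at the list's median. Targets of ATF4 and CHOP have a median of 0.64 for miR-155 KO over WT, and the upstream genes a median of -0.17.

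Bzip factors that can pair or compete with the members moved both ways, as tested genes did in general. Over all tested genes 27.2% rose and 35.3% fell in miR-155 KO against WT, and 17.9% were higher and 46.4% lower than in PU.1 KI. Of 18 tested genes 6 rose and 6 fell in miR-155 KO against WT, with a median of 0.03, and 7 rose and 5 fell after median-of-ratios scaling. Nfe2l2 (NRF2, the factor of the antioxidant response) averaged 12.7 ± 0.895 RPKM in miR-155 KO, 4.48 ± 0.229 in PU.1 KI and 4.16 ± 0.199 in WT (log2 difference from WT 1.5 ± 0.06, limma adjusted p = 8.85e-14). Mafg, a small MAF partner of NRF2, rose by 0.79 and Nfe2l1 by 0.83 in miR-155 KO, while another small MAF gene, Mafk, was at 2.94, 5.65 and 5.998 RPKM in miR-155 KO, PU.1 KI and WT. Fos, an immediate early AP-1 subunit, averaged 10.6 ± 2.82 RPKM in miR-155 KO, 27.1 ± 10.97 in PU.1 KI and 44.0 ± 16.4 in WT (log2 difference from WT -1.95 in miR-155 KO, limma adjusted p = 9.37e-07). Between the mutants 5 were higher and 8 lower in miR-155 KO, or 7 and 6 after that scaling, among them Fosl2 higher by 0.68 and Batf3 lower by a log2 difference of -0.75.

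The branches of the unfolded protein response that run through IRE1 and ATF6 had genes in both directions, and between the mutants their balance turned with the scaling. Of 27 tested genes 6 rose and 9 fell in miR-155 KO against WT, with a median of -0.13. Without miR-155 KO replicate 5 these were 6 and 14. The shares over all tested genes, 27.2% higher and 35.3% lower, were near those of this list. Between the mutants 17.9% of all tested genes were higher and 46.4% lower in miR-155 KO. Ern1, the IRE1 sensor, was at 3.94 RPKM in miR-155 KO, 2.14 in PU.1 KI and 2.09 in WT (log2 difference from WT 0.78, limma adjusted p = 1.97e-09), and the degradation genes Derl1 and Sel1l rose by 0.47 and 0.49. Xbp1, the factor that IRE1 splices, averaged 107 RPKM in miR-155 KO, 106 in PU.1 KI and 134 in WT, and fell in both mutants against WT (log2 difference -0.32 and -0.35, limma adjusted p = 0.00114 and 0.00196). Its targets Derl3 and Dnajb9 had log2 differences of -0.66 and -0.46 in miR-155 KO against WT (limma adjusted p = 1.37e-06 and 1.03e-05). Between the mutants 5 genes were higher and 7 lower in miR-155 KO as deposited, 5 and 13 without miR-155 KO replicate 5, 9 and 3 after median-of-ratios scaling, and 15 and 2 with quantile normalization.

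Among mitochondrial chaperones and proteases, 4 of 12 rose and 3 fell in miR-155 KO against WT, with a median of 0.01. Of all tested genes 27.2% rose and 35.3% fell there, and 17.9% were higher and 46.4% lower than in PU.1 KI. Lonp1, a protease of the mitochondrial matrix, averaged 37.7 ± 1.80 RPKM in miR-155 KO, 21.6 ± 1.76 in PU.1 KI and 19.2 ± 1.59 in WT (limma adjusted p = 3.4e-10 against WT), and Hspa9, the mitochondrial HSP70, rose by 0.41. Hspd1, the matrix chaperonin HSP60, had a log2 difference from WT of -0.34. Without WT replicate 3 the counts were 2 and 2, and without WT replicate 4 they were 4 and 1. Between the mutants 3 were higher and 4 lower in miR-155 KO, 3 and 2 without PU.1 KI replicate 4, 2 and 2 without miR-155 KO replicate 4, and 5 and 1 after median-of-ratios scaling.

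Of 12 tested NRF2 targets 6 rose and 1 fell in miR-155 KO against WT, with a median of 0.30, and 7 were higher and 2 lower than in PU.1 KI, with a median of 0.41. Over all tested genes the shares were 27.2% and 35.3% against WT, and 17.9% and 46.4% against PU.1 KI. Gsr, glutathione reductase, was at 19.98 RPKM in miR-155 KO, 7.13 in PU.1 KI and 5.16 in WT (log2 difference from WT 1.86, limma adjusted p = 2.63e-13). Nqo1, a quinone reductase, was at 1.72, 0.204 and 0.278 RPKM in that order, and Fth1, the ferritin heavy chain, rose by 0.90. Pgd, of the pentose phosphate pathway, had a log2 difference from WT of -0.58. The single fall became 2 without miR-155 KO replicate 5. The 2 lower than in PU.1 KI became 1 without replicate 3, 4 or 5 of PU.1 KI or replicate 1, 3 or 4 of miR-155 KO, and Taldo1 was the gene lost.

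Of 17 tested p53 targets 9 rose and 4 fell in miR-155 KO against WT, with a median of 0.26. Over all tested genes 27.2% rose and 35.3% fell. Between the mutants 7 were higher and 5 lower in miR-155 KO, with a median of 0.09, where 17.9% and 46.4% of all tested genes were. After median-of-ratios scaling these were 9 and 3, beside 3033 and 3013 of all 9627 tested genes. Pmaip1 (NOXA, a BH3-only protein that promotes cell death and is also placed downstream of ATF4) averaged 74.9 ± 3.69 RPKM in miR-155 KO, 22.3 ± 2.10 in PU.1 KI and 10.8 ± 0.862 in WT. It rose by 2.75 in miR-155 KO and by 1.02 in PU.1 KI against WT (limma adjusted p = 2.36e-16 and 3.55e-09). Cdkn1a, the cell cycle inhibitor p21, rose by 1.39 and Zmat3 by 0.62 in miR-155 KO, while Btg2, Plk2 and Aen fell by 0.38, 0.34 and 0.26.

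Immediate early genes, the group to which Atf3 and Ppp1r15a also belong by their fast induction, were mostly lower in miR-155 KO. Of 17 tested, neither member included, 3 rose and 12 fell against WT, with a median of -0.38, and 1 was higher and 11 lower than in PU.1 KI, with a median of -0.41, or 3 and 10 after median-of-ratios scaling. Over all tested genes 27.2% rose and 35.3% fell against WT, and 17.9% were higher and 46.4% lower than in PU.1 KI. Egr1, a zinc finger factor induced by antigen receptor signals, averaged 19.0 ± 2.09 RPKM in miR-155 KO, 36.9 ± 4.61 in PU.1 KI and 43.0 ± 2.35 in WT (log2 difference from WT -1.16, limma adjusted p = 1.51e-09). Egr2 and the phosphatase gene Dusp1 had log2 differences of -0.73 and -1.11 in miR-155 KO against WT. Ier3 and Nr4a1 rose by 0.87 and 0.59. The single gene higher than in PU.1 KI, Nr4a1, became 1 of 2 without miR-155 KO replicate 4. The values of Ppp1r15a in miR-155 KO lay in the direction of most of this list and opposite to the 8 members called higher, and whether it goes with this list was not tested.

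In PU.1 KI against WT, where 23.7% of all tested genes were called higher and 4.03% lower, leaving out 1 library moved several of the counts of the surrounding lists. Of the upstream genes 2 rose and 1 fell, a fall (Eif2b3) that was lost without replicate 1, 2 or 4 of WT, replicate 2, 3 or 4 of PU.1 KI or replicate 3 of miR-155 KO, and the rises were 1 without WT replicate 1 or PU.1 KI replicate 3 or 4. After median-of-ratios scaling 1 rose and 4 fell. Of the bzip factors 4 rose, led by Batf at 0.60 (limma adjusted p = 3.76e-05), and 2 fell, Fos and Fosb. Both falls were lost without WT replicate 2 or 3 or without any one of PU.1 KI replicates 2 to 5, and the rises were 2 without WT replicate 1 and after that scaling. Of the IRE1 and ATF6 genes 2 rose and 2 fell, with 1 rise without any of WT replicates 1, 2 and 3 or PU.1 KI replicates 3 and 4, and 1 rose and 10 fell after median-of-ratios scaling. Of the mitochondrial genes 2 rose and 0 fell, with 0 rises without WT replicate 1 or 2 or PU.1 KI replicate 4, 1 rise without PU.1 KI replicate 2, 3 or 5, 1 fall without PU.1 KI replicate 4 or miR-155 KO replicate 5, and 0 rises with 2 falls after that scaling. Of the NRF2 targets 2 rose, Gsr by 0.43 and Fth1 by 0.29, and 0 fell, and 2 rose and 2 fell after scaling. Of the p53 targets 6 rose and 1 fell (Trp53inp1), with 2 falls without WT replicate 4 or PU.1 KI replicate 1 or 2, and 4 rose and 3 fell after scaling. Of the immediate early genes 2 rose and 3 fell, or 1 and 6 after scaling. The falls were 1 without WT replicate 2 or 3 or PU.1 KI replicate 2, 3, 4 or 5, and 5 without PU.1 KI replicate 1, and the rises were 1 without WT replicate 1 or 4 or PU.1 KI replicate 3 or 4.

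The genes whose profile over the 14 libraries came nearest to a member were found by the mean absolute difference in log2(RPKM + 0.5) after the WT mean was subtracted. For Ddit3 they were Adm (0.101), Arl4c (0.106) and Fgl2 (0.107). Adm, which encodes adrenomedullin, averaged 12.3 RPKM in miR-155 KO, 5.52 in PU.1 KI and 3.54 in WT. For Nupr1 they were Csf3r (0.164), Pmaip1 (0.223) and Lilrb4 (0.234). Csf3r, the receptor of granulocyte colony-stimulating factor, averaged 9.81 RPKM in miR-155 KO, 1.68 in PU.1 KI and 0.777 in WT. For Atf4 they were Lamc1 (0.025), Igf2r (0.037) and Atxn2 (0.039), whose small distances go with the small differences of Atf4 itself.

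Markers of other cells that a spleen preparation could hold were examined beside these results. Macrophage markers, 0 of 12 past the filter, summed to 1.16 to 1.44 RPKM in miR-155 KO, 0.397 to 0.685 in PU.1 KI and 0.445 to 0.697 in WT, with C1qa at 0 in all libraries. The 9 neutrophil markers summed to 0.0499 RPKM or less in any library, with S100a8, S100a9, Elane, Retnlg and Ly6g at 0 throughout. Plasma cell markers, 8 of 9 tested, summed to 1010 to 1234 RPKM in miR-155 KO, 988.1 to 1302 in PU.1 KI and 1111 to 1422 in WT. Most of this sum was Mzb1, and single markers differed: 1 of the 8 rose and 5 fell in miR-155 KO against WT, and 1 rose and 3 fell in PU.1 KI against WT. The shares over all tested genes were 27.2% and 35.3% in miR-155 KO, and 23.7% and 4.03% in PU.1 KI. Igj, the J chain gene, averaged 153 ± 41.6 RPKM in miR-155 KO, 132 ± 29.6 in PU.1 KI and 282 ± 36.9 in WT (log2 difference from WT -0.91 and -1.12, limma adjusted p = 0.000232 and 0.000124). Irf4, a factor of plasma cell differentiation, rose by 0.66 and 0.38. Dendritic cell markers, 3 of 8 tested and Flt3 the highest, summed to 31.3 to 39.5 RPKM in miR-155 KO, 40.2 to 49.0 in PU.1 KI and 26.1 to 33.4 in WT. T cell markers, 1 of 7 in the table tested (Cd2), summed to 3.44 to 4.79, 4.30 to 7.09 and 4.70 to 6.53 RPKM in the same order. Stromal markers, 1 of 8 tested (Pecam1), summed to 3.32 to 4.06, 6.87 to 7.65 and 6.57 to 7.48, with Col3a1 and Dcn at 0. NK cell markers summed to at most 0.831 and erythroid markers to at most 0.754 RPKM. The part of other cells in the member values was not tested.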

How the data were processed

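The authors deposited 1 table of RPKM values with a column per library. Trim Galore, TopHat and the build NCBIM37 are named per the submitters' processing notes, without versions. The sources used here do not give the counter, annotation or strand setting. Values in RPKM are already scaled to depth and length, so no count model was run.

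All 14 columns matched a library by name, and 0 of 91 column pairs were identical. limma 3.58.1 in R 4.3.3 was fitted on log2(RPKM + 0.5) for the 9627 rows with at least 1 RPKM in at least 4 libraries, with 1 mean per genotype, a trended prior, two-sided tests and a Benjamini-Hochberg threshold of 0.05. Scripts were tested on simulated data. Depth was taken from the 250 lowest values above 0 of genes spanning under 2500 bp, of which 66.4% to 72.8% came out within 0.01 of a whole read. Each member's read counts were taken at the shortest length that made the values of all 14 libraries whole within 0.01. Longer lengths were not searched, and counting errors hold for that length and cover sampling only.

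The members and gene lists were chosen with earlier results of these data known. Named are the members and, per list and comparison, genes among the 3 called higher and 3 called lower with the smallest adjusted p, and the 3 nearest profiles of Ddit3, Nupr1 and Atf4. Others are named where a count of 5 or fewer needs its genes or as kinases and markers of the pathway, chosen after their values were seen. Lists covered upstream genes, targets, bzip partners, IRE1 and ATF6 genes, mitochondrial stress, NRF2, p53, immediate early genes and markers of 9 cell types. Some genes were counted in several lists. Tnfrsf10b and Bbc3 were in the targets and p53 lists, and Btg2 in the p53 and immediate early lists. Fos, Fosb, Jun and Junb were in the bzip and immediate early lists. Xbp1, Derl3 and Batf3 were also markers. Alternatives changed the scaling, filter, pseudocount and replicate block and left out each library.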

Additional observations from a re-analysis of the deposited data

Results flagged for a closer look

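No member had a library far from the others of its genotype by Dixon's test. The check covered 225 groups of 4 or 5 libraries, from the members and from the list genes with the smallest adjusted p. Of these, 12 had such a library, all in list genes, and chance alone gives about 1 in 20. In PU.1 KI replicate 1, Fos was at 46.3 RPKM with the next library at 24.9, and Fosb at 7.09 with the next at 2.74. In miR-155 KO replicate 5, Fth1 was at 505 RPKM with the next at 437.5, and Btg2 at 24.9 with the next at 22. In PU.1 KI replicate 5, Gadd45a was lowest at 4.02 RPKM with the next at 4.60. In WT replicate 1, Derl1 was lowest at 30.4 RPKM with the next at 32.3, and Sel1l lowest at 16.9 with the next at 18.9. WT replicate 4 was highest for Eif2s3x at 28.8 RPKM (next 26.7), Lonp1 at 21.6 (next 18.5), Hspd1 at 48.5 (next 43.8) and Zmat3 at 8.71 (next 7.71), and lowest for Eif2s2 at 21.3 (next 22.5).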

How the results depend on the processing

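The 30 member differences were recomputed under 21 alternatives, and none of the 630 values reversed beyond the replicate spread. Within that spread Ppp1r15a in PU.1 KI against WT changed sign. It was -0.002 in the main fit, 0.036 with the replicate block and 0.054 without WT replicate 2. Of the 630 values, 608 stayed within the replicate spread and 22 moved beyond it, 5 with median-of-ratios scaling, 9 with quantile normalization and 4 each with pseudocounts of 0.1 and 1. Atf4 in PU.1 KI against WT and between the mutants was among those moved by median-of-ratios scaling and by quantile normalization. Threshold calls changed for Sesn2 in PU.1 KI against WT alone, which missed the threshold with quantile normalization (0.16), no filter (0.25), the replicate block (0.24) and without WT replicate 1 (0.18), WT replicate 4 (0.25), PU.1 KI replicate 3 (0.23) or PU.1 KI replicate 4 (0.20).

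Same-numbered libraries did not pair throughout: 7 of 13 pairs correlated over 0.1 (from -0.39 to 0.47), and 4 of 14 libraries correlated best with their own number. These correlations do not exclude a pairing of some libraries. With the replicate block, called genes numbered 6326 in miR-155 KO against WT, 2908 in PU.1 KI against WT and 6461 between the mutants, and called targets 37, 22 and 33. Without the block, called genes were fewer, at 6017, 2667 and 6192, and called targets were 36, 21 and 32. The falls of Fos and Fosb in PU.1 KI against WT did not pass with the block (limma adjusted p = 0.109 and 0.0703), which left 1 immediate early gene higher and 1 lower there, nor with no filter (adjusted p = 0.122 and 0.0941). Leaving out each library gave 5546 to 6184, 1962 to 3126 and 5734 to 6449 called genes, and 34 to 39, 16 to 24 and 31 to 34 called targets, in that order. Nupr1 in WT, at 29 to 38 reads, is where depth limits precision most.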
